A study of Homo sapiens with 6 samples.

Results

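The genes described here encode matrix metalloproteases (MMPs) outside the cluster at 11q22, the tissue inhibitors of metalloproteases (TIMPs) and RECK, ADAM and ADAMTS proteases, ADAMTS-like proteins, and the serine peptidases FAP and DPP4. They were chosen by name, with earlier results of these data known. Every probe set whose gene entry in the array annotation held one of the 42 names was used. This gave 119 of 54613 probe sets, for 41 of the 42 genes (41 of 19775 genes measured). None of the 119 named a further gene, and none named ADAMTS7, which entered only the promoter counts below. RNA of the established human breast tumour line MDA-MB-436 was read on 6 Affymetrix arrays, 3 of wild type cells and 3 of cells whose titles say NF1-C2S transfected. The labels also give the condition of the latter as overexpression of NF-C2, and the series record as stable transfection with an expression plasmid holding NF1-C2, one of the nuclear factor I-C proteins, which bind DNA and regulate transcription. Both groups grew in the same medium, RPMI-1640 with serum and insulin, and the labels name no cells with an empty plasmid. The labels do not say whether the transfected cells were 1 clone or a pool, or whether replicates were separate cultures, so p-values measure only the spread between these arrays, and that spread may be technical.

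MMPs, ADAMs and ADAMTS proteases are zinc-dependent enzymes. Most MMPs cut collagens and other matrix proteins, either as secreted enzymes or tethered to the cell surface. ADAMs mostly release growth factors, cytokines and receptors from the cell surface, and ADAMTS enzymes process procollagens or cut large proteoglycans. TIMPs and the membrane-anchored RECK block the active enzymes, and TIMP2 together with MMP14 also takes part in activating the proform of MMP2.

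Levels are values on the log2 scale that RMA gave for each probe set, and each change is the transfected mean minus the wild type mean on that scale. A gene was read on its brightest probe set, and a change was called where the adjusted p of limma, over all genes, was under 0.05. Of the 41 genes, 14 fell, 7 rose and 20 did not pass, so 51.2% were called where 31.9% of all genes were. As earlier results of these data were known when the genes were chosen, this difference is not independent of the data. Of 22 further MMP, ADAM and ADAMTS genes outside the choice, 1 was called (4.55%). Most of the 22 had both group means under 4.82, a level under which few genes were called, so the shares are not alike in level. By direction, 16.9% of all genes were called lower and 15% higher. Among genes whose mean level lay above 4.82, the median of all values, 18 of 35 of these genes were called (51.4%) and 45.7% of all genes. Under that level 3 of 6 were called (50%) and 6.22% of all genes. The groups did not overlap in 25 of the 41 genes, and in 43% of all genes. The median change was -0.04 over the 41 genes and 0 over all genes. Falls of at least 2-fold were called in 7 of these genes and in 3.84% of all genes, and such rises in 3 of them and in 2.87% of all genes. Over probe sets, 32 of the 119 were called lower and 15 higher (39.5%), where 22.2% of all probe sets were called, 11.4% lower and 10.8% higher. At least 2-fold, 16 of the 119 fell and 6 rose, where 2.69% and 2.22% of all probe sets did. Of the 63 probe sets above 4.82, 57.1% were called, and of all probe sets above it 38.7%, while under it the shares were 19.6% of 56 and 5.56%. The groups did not overlap on 57 of the 119, and on 34.9% of all probe sets. In bulk RNA, fewer cells that make a transcript and less of it per cell cannot be told apart.

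**Figure D1:**
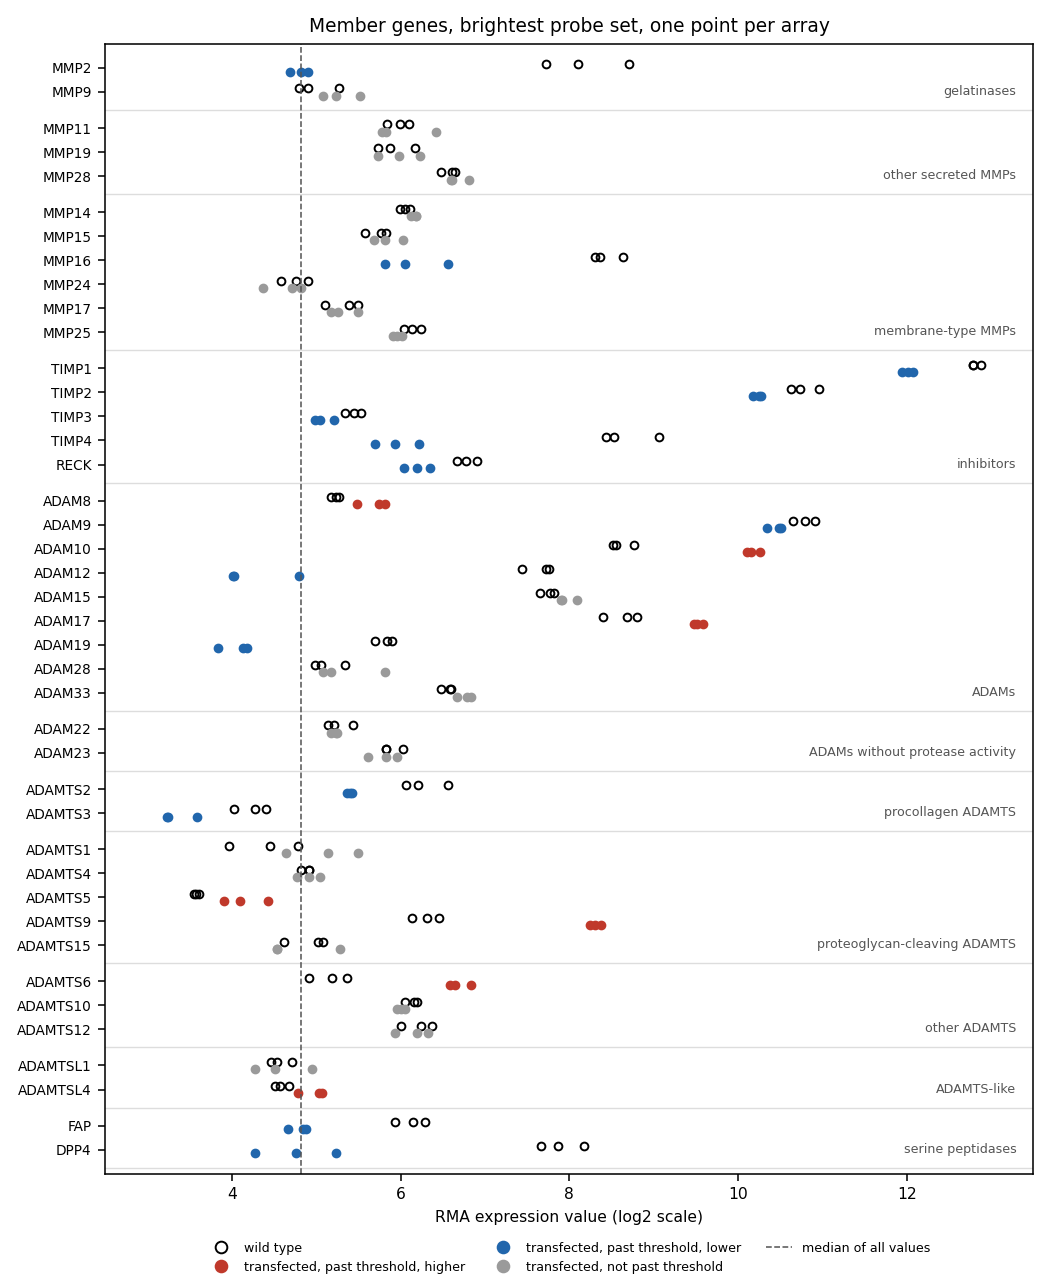
RMA values (log2 scale) of the 41 measured genes on their brightest probe sets, 1 point per array, with wild type arrays as open circles and transfected arrays filled and coloured by the call of limma. All 5 inhibitor genes lie lower on the transfected arrays, MMP2, ADAM12 and DPP4 drop to near the dashed median of all values, 4.82, and ADAM10, ADAM17, ADAMTS9 and ADAMTS6 lie higher.

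The region before the start site is shown for genes that passed the test and have an entry in the RefSeq promoter table (GRCh38.p14). Among these, the 3 with the largest falls and the 3 with the largest rises were taken. They moved in opposite directions, and the transfected protein is a DNA-binding factor. MMP2 and ADAMTS9, with the largest fall and the largest rise of the genes described here, have no entry. Each line gives the 250 bases before the start, 5′ to 3′ on the strand of the gene. Capitals mark the nuclear factor I recognition element TTGGC, searched on both strands, so that it can read GCCAA.

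ADAM12 (chr10:126388478-126388727, strand -): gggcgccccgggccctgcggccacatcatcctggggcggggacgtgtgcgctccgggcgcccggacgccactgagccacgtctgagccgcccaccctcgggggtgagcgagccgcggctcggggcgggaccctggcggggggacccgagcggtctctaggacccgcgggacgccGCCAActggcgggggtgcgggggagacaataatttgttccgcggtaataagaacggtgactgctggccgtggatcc
DPP4 (chr2:162074216-162074465, strand -): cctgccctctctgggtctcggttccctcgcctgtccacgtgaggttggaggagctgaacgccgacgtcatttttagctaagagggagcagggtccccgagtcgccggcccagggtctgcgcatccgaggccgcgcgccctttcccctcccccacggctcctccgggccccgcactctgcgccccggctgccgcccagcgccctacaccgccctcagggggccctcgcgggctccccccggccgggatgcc
TIMP4 (chr3:12158913-12159162, strand -): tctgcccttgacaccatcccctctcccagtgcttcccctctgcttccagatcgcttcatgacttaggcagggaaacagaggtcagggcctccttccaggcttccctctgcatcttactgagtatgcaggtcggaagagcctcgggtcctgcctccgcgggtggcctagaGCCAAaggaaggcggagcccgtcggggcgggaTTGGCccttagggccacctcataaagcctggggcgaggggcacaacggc
ADAM10 (chr15:58749708-58749957, strand -): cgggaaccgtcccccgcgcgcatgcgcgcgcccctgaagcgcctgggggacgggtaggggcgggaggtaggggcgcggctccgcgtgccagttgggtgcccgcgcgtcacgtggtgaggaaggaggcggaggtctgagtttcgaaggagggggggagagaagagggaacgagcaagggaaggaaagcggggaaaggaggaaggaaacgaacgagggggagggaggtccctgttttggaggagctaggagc
ADAMTS6 (chr5:65481921-65482170, strand -): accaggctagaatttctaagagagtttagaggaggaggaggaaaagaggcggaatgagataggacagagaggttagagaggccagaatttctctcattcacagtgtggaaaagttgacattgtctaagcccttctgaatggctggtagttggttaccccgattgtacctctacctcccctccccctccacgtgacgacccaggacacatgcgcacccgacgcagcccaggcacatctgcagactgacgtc
ADAM17 (chr2:9555831-9556080, strand -): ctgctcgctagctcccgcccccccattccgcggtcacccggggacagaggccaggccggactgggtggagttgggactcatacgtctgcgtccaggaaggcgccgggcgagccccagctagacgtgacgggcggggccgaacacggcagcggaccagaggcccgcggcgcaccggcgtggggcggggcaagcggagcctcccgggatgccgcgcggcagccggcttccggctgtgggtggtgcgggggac

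TIMP4 held 2 such elements and ADAM12 held 1, while these letters did not occur in the windows of DPP4, ADAM10, ADAMTS6 and ADAM17. The table matched 25 of the 42 genes with 26 promoters, of which 10 held TTGGC (38.5%), where 40.8% of all 35116 promoters did. The full nuclear factor I palindrome, which is TTGGC followed after 5 free bases by GCCAA and so contains that element on both strands, was in 0 of the 26 and in 0.0285% of all promoters. The AP-1 site TGANTCA was in 1 of the 26, that of ADAMTS12 (3.85%), and in 6.57% of all promoters. A match of letters describes the sequence and shows no binding.

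Of the gelatinases, which cut denatured collagen and type IV collagen, MMP2 fell and MMP9 did not pass. MMP2 read 8.10, 7.72 and 8.71 on the wild type arrays and 4.90, 4.82 and 4.69 on the transfected arrays. The wild type values spread more widely than the transfected ones, and the groups lay far apart. The means were 8.18 ± 0.50 and 4.80 ± 0.11 (SD, n = 3), a fall of at least 10.4-fold (change -3.37, SE 0.23, adjusted p = 4.05e-05). "At least" is written before a fold where 1 of the group means lies under 4.82, since RMA compresses differences there. The other 2 MMP2 probe sets lay under that level in both groups and read 0.02 each, so that the mean over the 3 probe sets was -1.11. MMP9 read 4.99 ± 0.25 and 5.28 ± 0.22 with overlapping groups (adjusted p = 0.229, but 0.0384 with the replicate number as a block).

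The membrane-type MMPs, which act at the cell surface, differed from one another. MMP16, a transmembrane enzyme that can activate the proform of MMP2, read 8.31, 8.36 and 8.64 in wild type cells and 5.81, 6.56 and 6.05 in transfected cells. The highest transfected value lay well below the lowest wild type value. The change was -2.30 (SE 0.19, adjusted p = 9.85e-05), a 4.91-fold fall, and 4 of its 5 probe sets were called lower over all probe sets. The fifth, 208166_at, was dim in both groups and read -0.19, and the mean of all 5 was -1.31. MMP14, the main surface activator of the proform of MMP2, read 6.05, 5.99 and 6.11 against 6.12, 6.18 and 6.18. Its groups did not overlap, but the change of 0.11 did not pass (adjusted p = 0.295). None of the 4 MMP14 probe sets passed, and their changes ran from -0.11 to 0.11. MMP15 (0.11), MMP24 (-0.11), MMP17 (-0.02) and MMP25 (-0.17) did not pass either, with adjusted p-values from 0.148 to 0.93. The last pair are anchored by a lipid rather than by a transmembrane segment.

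The other secreted MMPs did not pass on their brightest probe sets, on which MMP11, or stromelysin-3, read 0.03, MMP19 read 0.05 and MMP28, or epilysin, read 0.10. Single probe sets of MMP19 and MMP28 gave another picture. MMP19 on 204575_s_at read 5.90, 6.08 and 6.15 against 4.94, 5.21 and 5.63, a change of -0.78 (adjusted p = 0.0121 over all probe sets, 0.0566 without wild type replicate 3). MMP28 on 239272_at read 4.52, 4.83 and 5.11 against 3.74, 3.61 and 3.56, a change of -1.18 and a fall of at least 2.27-fold (adjusted p = 0.000785). The labels do not say which transcript forms these probe sets read.

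All 5 inhibitor genes fell, where 16.9% of all genes were called lower. Of their 14 probe sets 11 were called lower and 0 higher, where 11.4% of all probe sets were called lower. Probe sets of the same gene are not independent readings. TIMP1, a secreted inhibitor of most MMPs, was the brightest of the 41 genes and read 12.79, 12.79 and 12.88 in wild type cells and 12.02, 11.94 and 12.08 in transfected cells. The arrays of each group lay within a narrow range, and the change was -0.81 (SE 0.07, adjusted p = 0.000134), a 1.75-fold fall.

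TIMP2 read 10.63, 10.73 and 10.96 against 10.25, 10.27 and 10.18. The groups did not overlap, and the change was -0.54 (SE 0.10, adjusted p = 0.00404). Its other 2 probe sets were also called lower, with -0.58 on 224560_at and -1.02 on 203167_at.

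TIMP3, which binds to the matrix and also inhibits ADAM17 and aggrecan-cleaving ADAMTS enzymes, read 5.53, 5.45 and 5.34 against 5.21, 4.98 and 5.04 on its brightest probe set. The change was -0.36 (SE 0.09, adjusted p = 0.0177), and the call ended without wild type replicate 1 or 2 or transfected replicate 2 or 3 (adjusted p = 0.0564 to 0.0666). Its other 3 probe sets read -0.92, -1.06 and -1.38, falls of at least 1.89-fold, 2.09-fold and 2.61-fold, and each was called, so that the mean over the 4 was -0.93 (adjusted p = 4.62e-05). All 4 end in _s_at, which means that probes may match more than 1 transcript.

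TIMP4 was the inhibitor with the largest change. It read 8.53, 8.44 and 9.06 against 5.94, 5.70 and 6.22, and the lowest wild type value lay far above the highest transfected value. The change was -2.72 (SE 0.19, adjusted p = 4.79e-05), a 6.61-fold fall. RECK read 6.79 ± 0.12 and 6.20 ± 0.16 (change -0.59, SE 0.10, adjusted p = 0.00366). Of its 5 probe sets 2 were called, and the other 3 read -0.40, -0.01 and -0.04, with a mean over all 5 of -0.35.

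**Figure D2:**
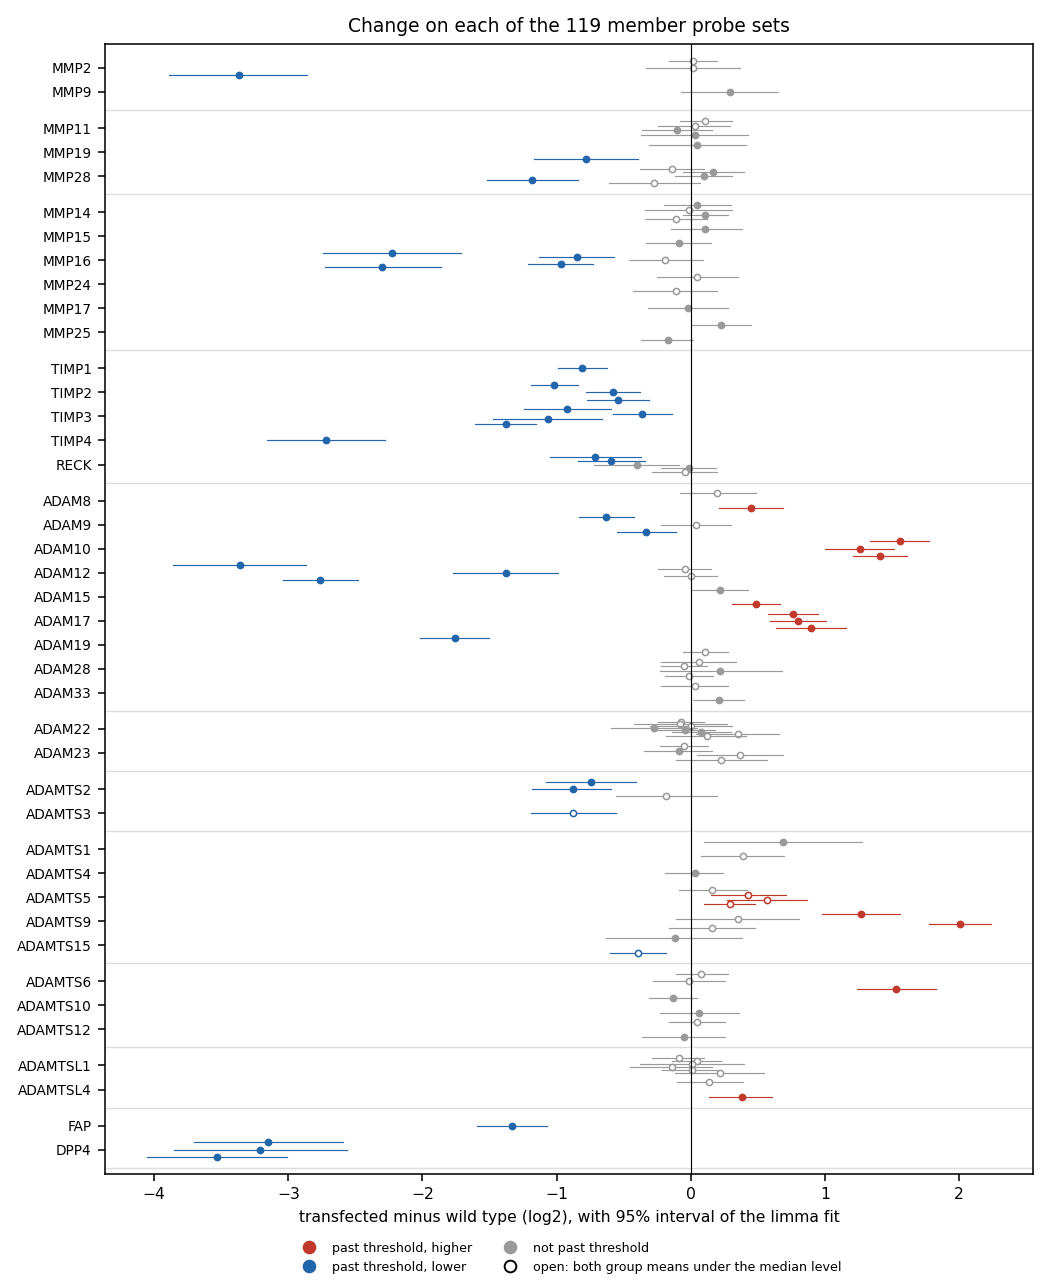
Change from wild type to transfected arrays (log2 scale) on each of the 119 probe sets, 1 point per probe set, with the 95% interval of the limma fit as a line, and open points where both group means lie under 4.82. Coloured points passed the test over all 54613 probe sets, and no gene has coloured points on both sides of 0.

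The ADAMs with protease activity split evenly, with 3 higher, 3 lower and 3 not past the test. ADAM10, which sheds Notch receptors, cadherins and growth factor precursors, read 8.52, 8.77 and 8.56 in wild type cells and 10.16, 10.26 and 10.11 in transfected cells. The groups were tight and well apart, and the rise was 2.95-fold (change 1.56, SE 0.09, adjusted p = 2.37e-05). Its other 2 probe sets rose by 1.26 and 1.41. ADAM17, the enzyme that releases tumour necrosis factor and several ligands of the epidermal growth factor receptor, read 8.40, 8.69 and 8.80 against 9.52, 9.48 and 9.58. The transfected values lay within a narrower range than the wild type ones and above all of them. The change was 0.90 (SE 0.11, adjusted p = 0.000622), with 0.76 and 0.80 on the other 2 probe sets. ADAM8, an enzyme known from leukocytes, rose by 0.45 (adjusted p = 0.0103). Its other probe set, dim in both groups, read 0.20 (adjusted p = 0.325 over all probe sets). In the fit over all probe sets, the brighter one did not pass without wild type replicate 3 (0.0615) or transfected replicate 2 (0.0567). Of the 20 neighbours of ADAM8 along the chromosome, 7 were higher and 0 lower.

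ADAM12, a mesenchymal ADAM that cuts binding proteins of insulin-like growth factors, had nearly the same change as MMP2. It read 7.44, 7.73 and 7.76 in wild type cells and 4.03, 4.80 and 4.01 in transfected cells. Transfected replicate 2 lay above the other 2 transfected arrays, though far below the wild type ones. The fall was at least 10.3-fold (change -3.36, SE 0.22, adjusted p = 3.48e-05). Of its other probe sets, 226777_at fell at least 6.77-fold (-2.76) and 213790_at at least 2.60-fold (-1.38), while 2 that were dim in both groups read -0.04 and 0, and the mean over the 5 was -1.51.

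ADAM19, a relative of ADAM12 that can cut neuregulin, read 5.90, 5.84 and 5.70 against 4.13, 3.84 and 4.18. The fall was at least 3.39-fold (change -1.76, SE 0.11, adjusted p = 3.13e-05). Its other probe set, dim in both groups, read 0.11, and the mean of both was -0.83. ADAM9 fell by 0.33 (adjusted p = 0.0266) from 10.78 ± 0.13, a call that ended without wild type replicate 2 or 3 or transfected replicate 2 or 3 (adjusted p = 0.0516 to 0.0866). On 1555326_a_at it fell by 0.63 (adjusted p = 0.00148 over all probe sets).

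ADAM15, ADAM28 and ADAM33 read 0.22, 0.22 and 0.21 and did not pass (adjusted p = 0.0946, 0.484 and 0.0819). ADAM33 passed among bright probe sets alone (adjusted p = 0.0458) and with its neighbours' median change subtracted as a fixed value (0.29, adjusted p = 0.0253). ADAM15 rose by 0.49 on 217007_s_at (adjusted p = 0.00278 over all probe sets), and the mean of both its probe sets passed (0.35, adjusted p = 0.00708). ADAM22 and ADAM23, which lack protease activity and act as adhesion proteins of neurons, read -0.04 and -0.09 (adjusted p = 0.814 and 0.601). None of their 12 probe sets passed.

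The procollagen N-proteinases, which trim fibrillar procollagens, were lower. ADAMTS2 read 6.28 ± 0.26 and 5.39 ± 0.03 (change -0.88, SE 0.13, adjusted p = 0.00134). ADAMTS3 read 4.23 ± 0.19 and 3.35 ± 0.21, both under 4.82 (change -0.88, SE 0.13, adjusted p = 0.00193).

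Among the enzymes that cut proteoglycans such as versican and aggrecan, ADAMTS9 rose most. It read 6.14, 6.31 and 6.46 in wild type cells and 8.38, 8.25 and 8.30 in transfected cells. The groups lay far apart, and the rise was 4.02-fold (change 2.01, SE 0.10, adjusted p = 1.13e-05), which was the largest rise among the 41 genes. On 1554697_at it rose by 1.27, and its 2 dim probe sets read 0.35 and 0.16, for a mean of 0.95 over the 4. ADAMTS5 rose by 0.57 (SE 0.13, adjusted p = 0.0118) at levels of 3.58 ± 0.03 and 4.15 ± 0.26, near the dim end. In the fit over all probe sets that reading passed (adjusted p = 0.0155), but not without wild type replicate 1, 2 or 3 (0.055, 0.0547 and 0.0512). ADAMTS1, its neighbour on chromosome 21, read 0.69 with overlapping groups and did not pass (adjusted p = 0.0871). It passed under 4 alternatives (adjusted p = 0.0167 to 0.0452), among them the one without transfected replicate 1. ADAMTS4 read 0.03 and ADAMTS15 -0.12 (adjusted p = 0.873 and 0.755). ADAMTS15 fell by 0.39 on 229004_at, which was dim in both groups (adjusted p = 0.0158 over all probe sets, and 0.0573 and 0.0623 without wild type replicate 2 and transfected replicate 2).

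ADAMTS6 read 4.92, 5.19 and 5.36 against 6.65, 6.83 and 6.59 on 237411_at. The groups did not overlap, and the change was 1.53 (SE 0.12, adjusted p = 9.03e-05), a 2.89-fold rise. Its other 2 probe sets, dim in both groups, read 0.08 and -0.01, and the mean of the 3 was 0.54. ADAMTS10 (-0.13) and ADAMTS12 (-0.05) did not pass. Of the ADAMTS-like proteins, which share the non-catalytic domains and lack a protease, ADAMTSL4 rose by 0.38 (adjusted p = 0.0204), and ADAMTSL1 read 0.01 (adjusted p = 0.984). The ADAMTSL4 call ended without wild type replicate 1 or 3 or transfected replicate 2 or 3 (adjusted p = 0.0647 to 0.0743).

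The serine peptidases FAP and DPP4, close relatives that trim proline-containing peptides at the cell surface, both fell. DPP4 read 7.87, 7.67 and 8.17 in wild type cells and 5.24, 4.27 and 4.76 in transfected cells. The transfected values spread more widely than the wild type ones, all of them far below the wild type range. The fall was at least 8.85-fold (change -3.15, SE 0.24, adjusted p = 6.88e-05), and its other 2 probe sets fell at least 9.22-fold (-3.21) and 11.6-fold (-3.53). FAP, a marker of activated fibroblasts, read 5.93, 6.15 and 6.29 against 4.84, 4.66 and 4.88. The groups did not overlap, and the fall was at least 2.51-fold (change -1.33, SE 0.11, adjusted p = 1e-04). FAP was read by 1 probe set, which ends in _s_at.

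Of the 34 genes with more than 1 probe set, 0 had probe sets called in both directions. Of the 17 called genes with more than 1 probe set, every probe set was called in 5, which were TIMP2, TIMP3, ADAM10, ADAM17 and DPP4. In 4 genes that did not pass, MMP19, MMP28, ADAM15 and ADAMTS15, a single probe set other than the brightest was called.

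Several of these genes lay in runs of genes that moved the same way. Along the chromosomes, with gene order taken from GRCh38.p14, 12 of the 20 measured genes nearest to ADAM10 (10 on each side) were called higher and 0 lower, among them RNF111 (1.77) and TCF12 (1.61). The same counts were 13 and 0 for ADAM17, with ITGB1BP1 (1.33), and 12 and 0 for ADAMTS6, with SGTB (2.41) and ERBIN (1.34). Over all genes with 10 measured genes on each side, the median was 2 of 20 higher, and 1.15% of 19230 genes had at least 12. Around TIMP4, 14 of 20 were lower and 0 higher, including PPARG (-1.82) and FBLN2 (-3.69), where 0.359% of genes had at least 14 lower. These limits were set at the counts of the genes themselves, and the neighbours named were picked after their values were seen. With the median change of the 20 neighbours subtracted, the change was 0.91 for ADAM10, 0.39 for ADAM17 (adjusted p = 0.0294), 0.96 for ADAMTS6 and -2.29 for TIMP4, and each still passed. The median was subtracted as a fixed value, so p-values after subtraction leave out the spread among the neighbours. ADAMTSL4, with 10 of 20 neighbours higher, read 0.14 after subtraction and no longer passed (adjusted p = 0.326). ADAM22 read -0.04 beside neighbours of which 10 were higher and 1 lower, and it read -0.57 relative to them (adjusted p = 0.00278). That value comes from the shift of the neighbours, since 0 of the 8 ADAM22 probe sets were called.

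The 3 genes with the largest falls had few neighbours called in the same direction. Among the 20 neighbours of MMP2, 3 were lower and 0 higher, with a median of 0, and the change after subtraction stayed at -3.37. ADAM12 had 4 higher and 1 lower neighbours, and read -3.43 after subtraction. DPP4 and FAP lie close together on chromosome 2 with GCG, which read 0.07, as the measured gene between them. Of the 20 neighbours of DPP4, FAP and GRB14 were lower and MARCHF7 higher. ADAMTS9 had 8 higher neighbours and 1 lower, and read 1.89 after subtraction. Among other genes that fell, MMP16 had 7 lower and 0 higher neighbours, ADAM19 had 7 lower and 2 higher, and TIMP2 had 8 lower and 2 higher. Over all genes the median was 3 of 20 lower.

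**Figure D3:**
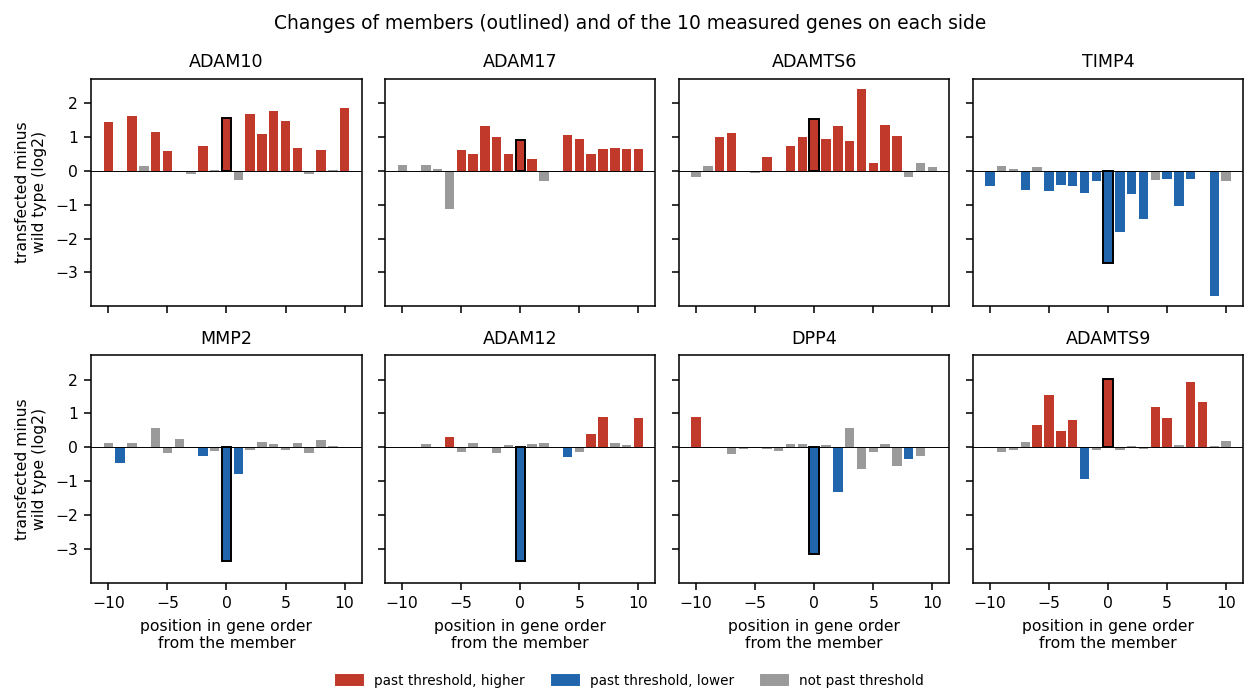
Change (log2 scale) of 8 genes, outlined in black at position 0, and of the 10 measured genes on each side in chromosome order, coloured by the call of limma. ADAM10, ADAM17 and ADAMTS6 stand among 12 or 13 higher neighbours and TIMP4 among 14 lower ones, while MMP2, ADAM12 and DPP4 fall beside 3, 1 and 2 lower neighbours.

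Related genes were taken from lists written with earlier results of these data known, leaving out the genes above. Of 131 measured, 27 were lower, 21 higher and 83 not past the test (36.6% called, where 31.9% of all genes were). In the 11q22 cluster of MMPs, 2 of 9 were higher, the collagenase MMP1 (4.63) and the stromelysin MMP3 (3.99, at least 15.9-fold, from a wild type mean of 3.92), and matrilysin MMP7 was lower (-0.65, with both means under 4.82). Of 22 further MMP, ADAM and ADAMTS genes, 1 was called, ADAMTS8 (-0.31), a call that ended when its probe sets were averaged (-0.12, adjusted p = 0.436), with a trend and robust prior (0.0809) and without wild type replicate 1 or 2 or transfected replicate 2 or 3 (adjusted p = 0.0623 to 0.116).

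Of 22 activators and partners, 6 were higher and 4 lower. FRMD8, which stabilises ADAM17 with the iRhom proteins at the cell surface, fell by 1.36 (-0.45 averaged over probe sets). TSPAN33, a tetraspanin that escorts ADAM10, rose by 1.16. Of the other 5 tetraspanins of that kind, TSPAN5 (-0.77, adjusted p = 0.00254) and TSPAN10 (-0.45, adjusted p = 0.00897) fell, and TSPAN14 (-0.24), TSPAN15 (0.03) and TSPAN17 (-0.10) did not pass. SH3PXD2A, a scaffold of invadopodia that binds ADAMs, rose by 1.13 (0.65 averaged). Of 17 procollagen and matrix processing genes, 4 were lower and 2 higher, with falls of the procollagen C-proteinase enhancers PCOLCE2 (-2.91, at least 7.53-fold) and PCOLCE (-2.24) and a rise of cathepsin S, CTSS (1.66). Of 16 other protease inhibitors, 6 were lower and 2 higher. SERPINB5, or maspin, fell at least 4.52-fold (-2.18, and -1.05 averaged), and the thrombin inhibitor SERPINE2 (-1.89) and the testican SPOCK1 (-1.84) also fell.

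Of 24 membrane proteins known to be shed by ADAMs, 7 were lower and 5 higher. The growth factor precursors moved apart, with epiregulin, EREG, lower by 4.02 (-2.55 averaged over probe sets) and HBEGF higher by 2.07 (1.03 averaged), while the adhesion protein ALCAM fell by 2.28. Of 21 matrix substrates, 4 were lower and 4 higher. Fibrillin FBN1 fell by 3.26 (-1.91 where _x_at and _s_at probe sets were dropped) and fibronectin FN1 by 2.77, which then read 0.02 on the brightest probe set left (adjusted p = 0.928). TFPI, a coagulation inhibitor that MMPs can cut, rose at least 6.41-fold (2.68, and 1.74 averaged). Median changes of the 7 lists ran from -0.06 to 0.02.

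**Figure D4:**
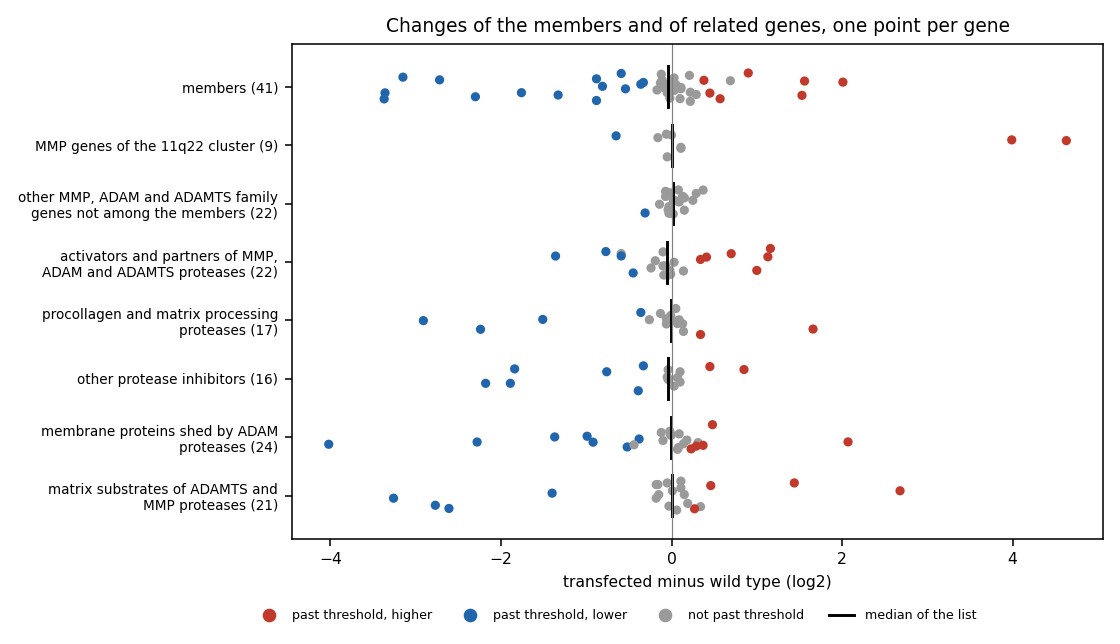
Change (log2 scale) of the 41 genes described here and of the 131 related genes in 7 lists, 1 point per gene, with the number of genes in brackets and the median as a black line. Medians lie between -0.06 and 0.02 while single genes reach from -4.02 to 4.63.

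Arrays correlated at 0.992 to 0.997 within groups and at 0.971 to 0.976 between them over all probe sets. Of the luminal epithelial markers 6 of 8 lay above 4.82 in wild type cells, while CDH1 (3.42) and KRT19 (4.01) lay under it in both groups. KRT18 fell from 12.55 to 11.62 and GATA3 from 6.81 to 5.48, EPCAM read -0.75 with groups that did not overlap (adjusted p = 0.0602), and the list mean was 6.25 to 6.36 on wild type and 5.92 to 6.12 on transfected arrays. Of 4 basal markers EGFR (10.42 and 10.05) and ITGA6 (10.16 and 8.87) were high and fell, and KRT14 (3.85) lay under 4.82. KRT5 read 4.83 and 4.64, and the list mean was 7.29 to 7.35 and 6.74 to 6.86. Of 9 mesenchymal and fibroblast markers, VIM was high and fell (13.54 and 13.01), and COL1A2, COL3A1, PDGFRA, PDGFRB and LUM lay under 4.82 in both groups. COL1A1 (6.60 and 6.44) and THY1 (5.39 and 5.38) lay above it in both groups, and DCN read 4.81 and 4.92. The mean level of that list was 5.59 to 5.76 on wild type arrays and 5.52 to 5.73 on transfected arrays. Of 6 haematopoietic markers, PTPRC, CD3E, MS4A1 and LYZ lay under 4.82 in both groups. HBB (5.48 and 5.40) and CD14 (5.77 and 6.59) lay above it, CD14 rose by 0.82, and the list mean was 4.33 to 4.47 and 4.50 to 4.62. Of 5 endothelial markers 4 lay under 4.82 in both groups and PECAM1 above it (5.39 and 5.31), with list means of 4.17 to 4.21 and 4.23 to 4.30. The part of other cell types in the changes above was not tested beyond these values.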

How the data were processed

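The values deposited by the authors are on the log2 scale, for 6 Affymetrix arrays in 1 table. On wild type replicate 3, 6354 values have more than 2 decimals, and on each of the other arrays 0 do. RMA is named in the submitters' processing notes, without a version; it corrects background, normalizes between arrays and summarises probes. Arrays have no read depth, and their number limits the precision.

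Leaving out 62 control probe sets left 54613. The platform annotation named 1 gene for 41091 of these, and symbols were updated by gene identifier (41037 matched). Each gene was read by the probe set, among those naming it alone, with the highest mean of the 6 arrays, which gave 19775 genes. Groups were compared with limma 3.58.1 in R 4.3.3 (lmFit, eBayes, two-sided, Benjamini-Hochberg over all genes or over all probe sets), which was checked on simulated data. Promoters came from RefSeq. A planned motif count in the member proteins was not run.

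Members and lists were chosen with earlier results of these data known. Values per array are given for members called with a change of at least 1, and for TIMP1, TIMP2, TIMP3, MMP14, ADAM10 and ADAM17, and single probe sets that differ from their gene were named after their values were seen. Up to 3 called genes with the largest changes were named per related list.

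Deviations from the group means of arrays with the same replicate number correlated at 0.398, 0.238 and 0.14, and those of other pairs at -0.277 to 0.142. As all same-numbered pairs exceeded 0.1, the numbers were taken to pair the arrays, from these values and not from a label. The third pair is not set apart, since wild type replicate 2 with transfected replicate 3 reached 0.142. The fit planned without that block is reported, with the block as an alternative beside other normalizations, weights, priors, filters, gene summaries and leaving out each array.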

Additional observations from a re-analysis of the deposited data

How the results depend on the processing

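Of the 21 genes called, 16 passed under each of up to 16 alternatives. TIMP3, ADAM9 and ADAMTSL4 lost calls when single arrays were left out, and ADAM8 and ADAMTS5 at an adjusted p under 0.01. At that threshold 4 genes were higher. For the 47 called probe sets, taken over all their alternatives, 579 results kept the call and 48 lost it. With a trend and robust prior, 201148_s_at of TIMP3 (adjusted p = 0.0605), 235368_at of ADAMTS5 (0.0685) and 226071_at of ADAMTSL4 (0.0573) lost it. Median centring ended the call of 202381_at of ADAM9 (0.0539). With _x_at and _s_at probe sets dropped, 8 of 69 probe sets were higher and 17 lower. Fewer were tested, and 202381_at of ADAM9 (adjusted p = 0.0505) and 235368_at of ADAMTS5 (0.0517) also lost their calls. In that setting MMP28 turned to -1.18 and FN1 to 0.02. Leaving out 1 array gave 6 to 8 genes higher and 12 to 14 lower, 10 to 17 probe sets higher and 29 to 31 lower, and 18 to 20 related genes higher and 22 to 28 lower. With the replicate block 8 genes were higher and 14 lower, 15 and 33 probe sets, and 22 and 31 related genes. It added MMP9, ended the call of the dim ADAMTS5 probe set 219935_at (adjusted p = 0.0538), and changed no other call among the 41 genes or the 47 called probe sets. Quantile normalization moved the median of all genes by 0.004.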
